A study of Xenopus allofraseri with 8 samples.

Results

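Knee extensor muscle of 4 *Xenopus allofraseri* frogs with a high maximum burst velocity was compared with that of 4 frogs with a low one, which together are all 8 frogs of the study. The high class held frogs B, C, F and G, with velocities from 1.56 to 1.87 m per s, and the low class held frogs A, D, E and H, from 1.10 to 1.44 m per s. The border between the classes ran between frog G at 1.56 and frog H at 1.44 m per s, the closest pair across it. The classes rest on the published performance measurements and not on the sample labels, which give only the category of each frog. By category, frogs A, D, E and G were endurant and frogs B, C, F and H burst-performant, so that velocity class and category had 6 frogs in common and were exchanged in G and H. The velocity is the highest instantaneous speed of an escape burst and was measured in swimming frogs, not in jumps. All 8 were adult males caught in the wild in 1 pond and kept in aquaria, none was treated, and each gave the knee extensors of the right leg for 1 library of polyA RNA. The comparison is one of individuals that differed in a trait and not of manipulated animals.

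Muscle fibres shorten when myosin heads pull on actin filaments, and calcium released inside the fibre starts each contraction. Fast fibres draw on calcium buffers of the parvalbumin family and on fast forms of sarcomeric proteins, whereas fibres for long work hold more mitochondria. Knee extensors drive the kick of the hind leg in both jumping and swimming frogs. An assembly made without a genome groups similar transcripts into Trinity genes, and the transcripts of 1 such gene may be splice forms, alleles or copies from both subgenomes of a polyploid frog, which could not be told apart here.

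Expression was given as estimated counts of read pairs for 218541 transcripts in 163981 Trinity genes and is reported as CPM, counts per 1000000 after TMM scaling. Depth, in units of 1000000 counts, ran from 9.12 to 13.6 per frog in the high class and from 4.45 to 17.4 in the low class. It averaged 11.4 ± 2.25 in the high and 8.51 ± 6.06 in the low class (SD, n = 4), which did not differ beyond the spread of the frogs (2-sided exact permutation test, p = 0.343). By these counts, both shallowest libraries, of frogs D and H, and the deepest, of frog E, belonged to the low class. For frogs C and D, the study lists far more read pairs than were counted here, a wider gap than in the other frogs. The reason was not tested, and fits without frogs C and D are given further below. The muscle markers *mybpc2*, *tmod4* and *ocm4.1* were found in all 8 frogs, whereas *fsd2* and *LOC108701289* were at 0 in 5 of them. Each of the latter is a single transcript, of 525 and 407 bases, and the 0 holds for that transcript. Whether Trinity genes without a symbol hold more of either gene was not tested. The gene total of *spib*, a transcription factor of blood cells, lay between 12.0 and 17.9 CPM in the high and between 11.4 and 25.3 CPM in the low class. Over all tested transcripts, the mean Euclidean distance on log2(CPM + 1) was 255.9 between frogs of unlike class (16 pairs) and 253.8 between frogs of like class (12 pairs) (1-sided exact permutation test over 35 divisions into 4 and 4, p = 0.20). The difference of 2.10 had the opposite sign when frog B, C, F or G was left out, at -2.46, -1.42, -2.95 and -2.69. The nearest frog belonged to the same class for 5 of the 8, and frogs B and F were each other's nearest.

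No transcript and no gene total was called between the velocity classes by the main test. A call needed an FDR, the adjusted p of Benjamini and Hochberg over all features tested, of at most 0.05 and a log2 fold change of at least 2 either way. Log2 fold changes are high minus low throughout. By edgeR's quasi-likelihood test, 0 of 55631 transcripts (0%) and 0 of 35656 Trinity gene totals (0%) passed, with smallest FDRs of 0.297 and 0.547. Without frog C, 2 gene totals were called. Without the expression filter, the same test called 12 transcripts and 768 gene totals, among more features than were tested here. That fit adds features above 1 CPM in fewer than 2 frogs, and the share it called is not given here. At an unadjusted p under 0.05 there were 2168 transcripts, 3.9% of those tested, of which 1152 were higher and 1016 lower in the high class. Among gene totals there were 1968, or 5.52%, with 906 higher and 1062 lower in the high class. The classes did not overlap in CPM for 1844 transcripts (3.31%) and for 1267 gene totals (3.55%). The median log2 fold change over all features tested was 0.03 for transcripts.

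Other tests on the same frogs did call features. edgeR's exact test called 144 transcripts (0.259%), 89 higher and 55 lower in the high class, and 36 gene totals (0.101%), 22 higher and 14 lower. DESeq2's Wald test called 151 transcripts and 22 gene totals, of which 124 and 21 were also called by the exact test. limma with trend called 4 transcripts and 1 gene total on log2(TPM + 1), and 8 and 3 on log2(TPM + 0.1). The plot of calls by test shows both directions at both levels.

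**Figure D1:**
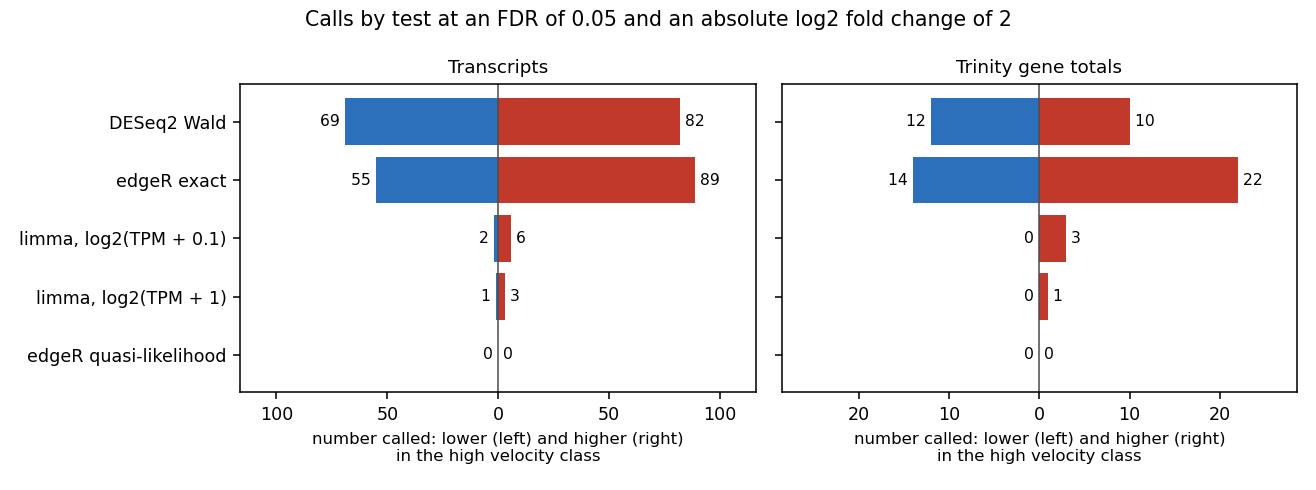
Number of transcripts (left panel) and Trinity gene totals (right panel) called by each test at an FDR of 0.05 and an absolute log2 fold change of 2, drawn to the right where higher and to the left where lower in the high velocity class. The quasi-likelihood test called 0 at both levels, whereas the exact test and DESeq2 called 144 and 151 transcripts in both directions.

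The transcripts called by the exact test were mostly scarce and mostly found in 1 class. Their mean level over all frogs had a median of 1.16 CPM, and 6 of the 144 were above 10 CPM. They had a median of 95.5 counts summed over the class in which they were higher. All 4 frogs of that class had counts in 123 of them and 3 frogs in the other 21, and in 95 (66.0%) every frog of the other class was at 0. The median difference of the class means was 1.53 as log2(CPM + 1), within a range of 0.85 to 5.44, and this scale shrinks differences of scarce transcripts. Without any model, 58 transcripts belonged to 1 class alone, with 5 or more counts in each of its frogs and less than 0.5 in each frog of the opposite class. Of these, 49 belonged to the high and 9 to the low class. By the same limits, 4 gene totals were found in the high class only and 0 in the low class only. The low class held both shallowest libraries, of 4449192 and 4715751 counts, in which a count of 5 is harder to reach and a 0 less firm, and the part of depth in this imbalance was not tested. Leaving out a frog, which asks for fewer frogs, raised the 58 to between 114 (without B) and 194 (without E).

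The transcripts of lowest p that carry no symbol separated the classes completely. TR47494|c2_g1_i4, of 1584 bases, was at 13.4, 8.30, 7.88 and 18.1 CPM in frogs B, C, F and G and at 0 in A, D, E and H. TR1919|c3_g1_i13, of 3679 bases, was at 6.08, 10.8, 5.46 and 9.51 CPM in the same frogs and at 0 in the low class. Both were thus found in every fast frog, at least 142-fold and 88.3-fold higher by counts pooled over each class against a floor of 3 counts over the other. In the opposite direction, TR44314|c3_g1_i1, of 1281 bases, was at 15.6, 13.7, 11.9 and 10.6 CPM in frogs A, D, E and H and at 0 in the high class. TR57261|c0_g1_i2, of 981 bases, was at 1.18, 2.57, 2.24 and 3.27 CPM in those frogs and at 0 in the high class. Both were found in every slow frog, at least 195-fold and 32.1-fold higher by pooled counts. In the order given, the Benjamini-Hochberg FDR was 0.596, 0.596, 0.297 and 0.81 (edgeR quasi-likelihood) and 3.73e-11, 6.27e-10, 1.1e-15 and 1.36e-05 (edgeR exact test). For each of the 4, the exact permutation test gave 0.0286, the smallest 2-sided p that 4 against 4 frogs allow, and these transcripts were taken for their low p. Floors and counting intervals rest on counts pooled over the 4 frogs of a class, so that they leave out the spread between frogs. They also take each read pair as independent, although no molecular identifiers marked the read pairs.

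**Figure D2:**
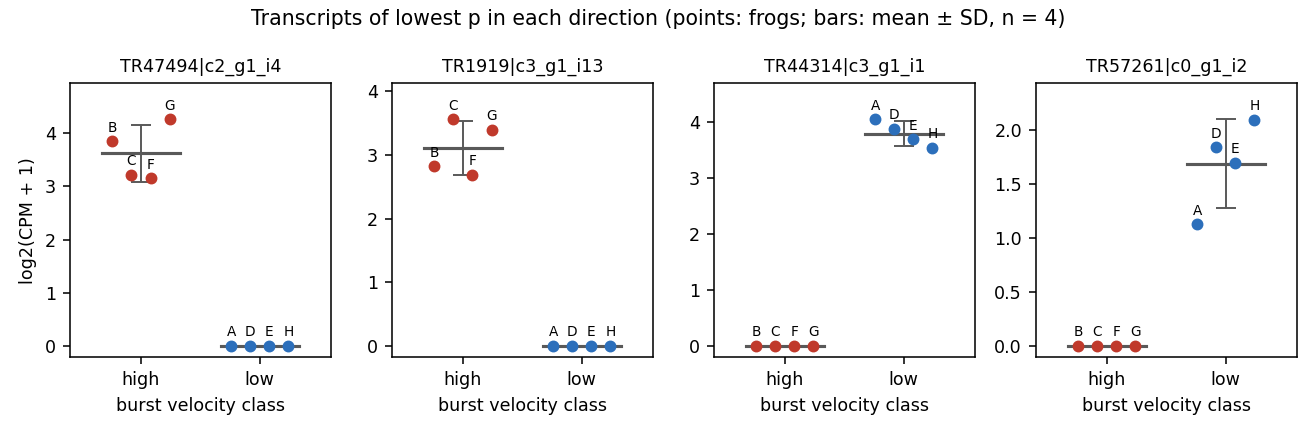
Level of the 2 transcripts of lowest p in each direction in every frog, as log2(CPM + 1) (vertical axis) by burst velocity class (horizontal axis), with letters for frogs and bars for mean ± SD (n = 4 each). In each panel all 4 frogs of 1 class had counts and all 4 frogs of the other were at 0.

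The Trinity genes of these transcripts did not show the same separation. The total of the gene of TR47494|c2_g1_i4, summed over 7 transcripts, was at 58.9 ± 11.0 CPM in the high and 70.5 ± 17.6 CPM in the low class (SD, n = 4; exact permutation test, p = 0.343). For TR44314|c3_g1_i1 the totals over 3 transcripts were 35.9 ± 3.19 and 37.5 ± 5.91 CPM (SD, n = 4; exact permutation test, p = 0.771). The totals of TR57261|c0_g1_i2 and its partner were 5.86 ± 1.84 and 4.69 ± 2.18 CPM (SD, n = 4; exact permutation test, p = 0.371). In these genes other transcripts thus supplied counts in the class where the transcript was at 0. The gene of TR1919|c3_g1_i13 was an exception, since its total over 13 transcripts was at 17.7, 16.9, 23.0 and 16.5 CPM in frogs B, C, F and G against 16.1, 14.5, 9.27 and 11.2 CPM in A, D, E and H. Those classes did not overlap, with a log2 fold change of 0.54 (standard error 0.26) and a Benjamini-Hochberg FDR of 0.884 (edgeR quasi-likelihood). Standard errors were taken from the F statistic of that test, as the size of the log2 fold change over its square root.

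Over all 144 transcripts called by the exact test, 120 lay in Trinity genes with 2 or more transcripts and held a median of 30.7% of the counts of their gene in the class where they were higher. On the log2(CPM + 1) scale the totals of their genes had a median difference of 0.21 towards the same side. Of these 117 totals, 4 were called themselves, beside 0.101% of all totals. Each of the 117 includes a called transcript, which favours such calls. The other 24 transcripts were alone in their gene, and 22 of those totals were called. These totals hold the same counts as their transcripts, so that the 22 add nothing to the transcript calls. Transcripts of 1 gene went in opposite directions in 2 genes, chosen here after their values were seen. In the first, a transcript of 713 bases had 11, 12, 26 and 15 counts in frogs B, C, F and G and 0 in the low class, and the only other transcript, of 702 bases, had 10, 7, 20 and 5 counts in A, D, E and H and 0 in the high class. The whole gene was thus given by 1 transcript in every fast frog and by the other in every slow frog, while its total had a log2 fold change of 0.05. In the second, transcripts of 3534 and 3493 bases among 6 did the same, the longer with 44, 46, 155 and 45 counts in frogs B, C, F and G and the shorter with 18, 42, 41 and 8 counts in A, D, E and H. They made up 42.0% of the counts of the gene in the high class and 40.1% in the low class. Read pairs that matched several transcripts were shared among them by Kallisto, so that such a division within a gene is itself an estimate.

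Among abundant features, no main call was made and few separated the classes. At a mean of 100 CPM or more, 819 transcripts held 70.2% of all counts. Of these, 42 (5.13%) had an unadjusted p under 0.05, beside 3.9% of all transcripts, with 20 higher and 22 lower in the high class. The classes did not overlap in 21 of the 819 (2.56%), against 3.31% of all transcripts tested. Of 797 gene totals at that level, 51 (6.40%) had an unadjusted p under 0.05, beside 5.52% of all totals. Of the 51, 15 were higher and 36 lower in the high class. The classes did not overlap in 19 of the 797 (2.38%), beside 3.55% of all totals.

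The called transcript of the exact test with the largest mean level had the symbol *ascc2*, the name of a subunit of the activating signal cointegrator complex, and its difference rested on frogs B and F. The transcript, TR31715|c6_g1_i4 of 4341 bases, was at 5761 and 4309 CPM in frogs B and F but at 27.3 and 17.2 CPM in the high-velocity frogs C and G. In the low class it was at 5.19, 4.50, 7.59 and 16.9 CPM in frogs A, D, E and H. The classes did not overlap, yet frog G, at 17.2, and frog H, at 16.9, were almost equal. The Benjamini-Hochberg FDR was 1.0 (edgeR quasi-likelihood) and 0.00929 (edgeR exact test). In the frogs where it was scarce, another transcript of the gene, of 4409 bases, held 67.6% to 78.1% of the gene's counts, and in B and F it held 0.658% and 3.79%. The 4341-base transcript held 67.4% and 68.2% there and at most 0.272% in any other frog. One more, of 749 bases, held 21.7% to 32.2% in every frog. The gene total was at 8463, 10185, 6127 and 13564 CPM in frogs B, C, F and G and at 13160, 13361, 13104 and 20105 CPM in A, D, E and H, overlapping between the classes (exact permutation test, p = 0.114). By its mean over all frogs, 12258.5 CPM, the total ranked 15 among Trinity genes. The name is the study's match, and whether it is right for so abundant a gene was not tested. Frogs B and F thus differed from the other 6 in which transcript of the gene was counted, and this did not divide the velocity classes.

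**Figure D3:**
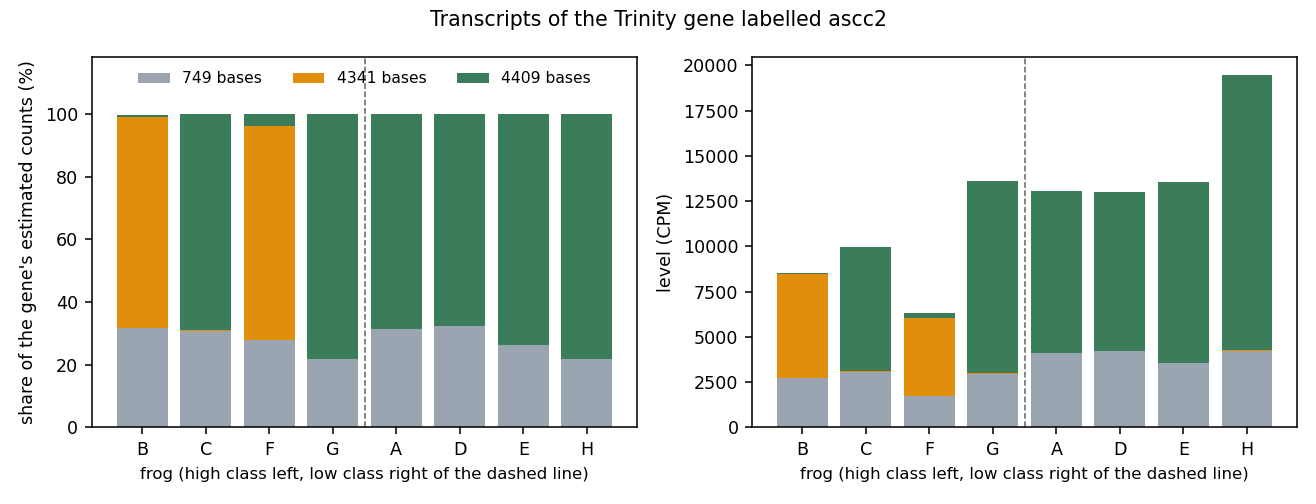
Transcripts of the Trinity gene labelled *ascc2* in each frog, as share of the gene's estimated counts in percent (left panel) and as level in CPM (right panel), with the 3 transcripts above 5% in any frog stacked. The 4341-base transcript filled 67.4% and 68.2% in frogs B and F, and the 4409-base transcript 67.6% to 78.1% in the other 6.

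A gene without a symbol showed the same pair of frogs. Of the 36 gene totals called by the exact test, 2 were above 10 CPM on average, and both are described here after their values were seen. The first, of 2 transcripts, was at 1247 and 1058 CPM in frogs B and F, at 26.1 and 31.1 CPM in C and G, and at 15.7, 7.91, 9.78 and 16.0 CPM in A, D, E and H. Its classes did not overlap, but almost all of the difference lay in frogs B and F, as for *ascc2*. The second, a single transcript of 506 bases, was at 49.7, 36.4, 39.8 and 51.5 CPM in frogs B, C, F and G and at 13.9, 15.2, 8.53 and 6.46 CPM in A, D, E and H. Here all 4 fast frogs stood above all 4 slow frogs at similar levels, with a log2 fold change of 2.01 (standard error 0.32). The Benjamini-Hochberg FDR of the first and second total was 0.884 and 0.636 (edgeR quasi-likelihood) and 0.00676 and 6.99e-04 (edgeR exact test).

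Gene symbols were at hand only for 103 transcripts in 96 Trinity genes, with 97 symbols. These were chosen by the study for a difference between its categories, which have 6 frogs in common with the velocity classes, so that their direction here is not independent evidence. Of the 103, 12 had an unadjusted p under 0.05 in edgeR's quasi-likelihood test, 9 higher and 3 lower in the high class, beside 3.9% of all transcripts. Of the 96 gene totals, 4 had an unadjusted p under 0.05, 3 higher and 1 lower in the high class, beside 5.52% of all totals. The exact test called 3 of the 103, beside 0.259% of all transcripts, and 2 of the 96, beside 0.101% of all totals. The choice by category favours such counts. For 44 transcripts the category test had put the burst-performant frogs higher, and frog H was above frog G in 40 of them, which that choice favours. For the other 59, frog G was above frog H in 58. The slow frog H therefore went with frogs B, C and F in most of these transcripts, and the fast frog G with A, D and E. The count of 12 fell to 7 without frog B or D and rose to 66 without G and 45 without H. The 4 gene totals became 7 without C, D or H and 15 without G. Leaving out G or H brings the classes closer to the categories by which these transcripts were chosen, which favours such a rise. Shares over all features in these fits are not given here. Bulk samples cannot tell fewer cells of a type from less RNA per cell.

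The list of sarcomere and calcium genes held 8 genes, among them *LOC108697262*, whose role is not given in the sources used here. Of their listed transcripts, 7 were fitted higher in the high class, with a median log2 fold change of 2.37 over the list. The median of 0.03 for all transcripts is no like baseline. The category test had put these 7 higher in burst-performant frogs and that of *rcsd1* higher in endurant frogs, which favours these directions. Of all 44 transcripts put higher in burst-performant frogs, 42 were fitted higher in the high class. Within the list, only the transcripts of *LOC108701289*, *fsd2* and *LOC108697262* had an unadjusted p under 0.05, beside 3.9% of all transcripts. The classes overlapped in all 8, beside 3.31% of all transcripts without overlap. Of their gene totals, which include the chosen transcripts, 5 were fitted higher in the high class, with a median of 0.24. Only the 2 genes with 1 transcript, *LOC108701289* and *fsd2*, had an unadjusted p under 0.05, beside 5.52% of all totals.

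*LOC108701289* was matched by the study to *speg*, a gene for a kinase of striated muscle. Its single transcript, of 407 bases, was at 14.2, 19.8 and 9.99 CPM in frogs B, C and F. It was at 0 in frog G and in every low-velocity frog. That of *fsd2*, a gene related to the muscle gene *CMYA5*, had 525 bases. It was at 6.30, 6.37 and 3.72 CPM in the same 3 frogs and at 0 in the other 5. In neither did the velocity border fall where the transcript was lost, since frog G was without it (exact permutation test for each, p = 0.143). By pooled counts they were at least 123-fold and 47.4-fold higher in the high class. For the transcripts, the Benjamini-Hochberg FDR was 1.0 for both (edgeR quasi-likelihood) and 0.0241 and 0.0584 (edgeR exact test). The gene totals hold the same counts, and their FDR was 0.884 for both (edgeR quasi-likelihood) and 0.00259 and 0.00918 (edgeR exact test). By the exact test both totals were thus called, but of the transcripts only that of *LOC108701289*.

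The transcript of *LOC108697262* was at 744, 1218, 263 and 113 CPM in frogs B, C, F and G and at 98.5, 97.5, 86.7 and 259 CPM in A, D, E and H. Only frog H, above G and close to F, broke the separation (exact permutation test, p = 0.0571). Its log2 fold change was 2.11 (standard error 0.74), with a Benjamini-Hochberg FDR of 1.0 (edgeR quasi-likelihood). Over all 8 transcripts of the gene the totals overlapped broadly, at 788, 1322, 506 and 696 CPM in the high and 558, 696, 482 and 720 CPM in the low class (exact permutation test, p = 0.314).

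*mybpc2* codes for the fast skeletal form of myosin-binding protein C, which holds thick filaments in register and tunes the cross-bridges. Its listed transcript, of 263 bases, was at 28.1, 33.2, 9.87 and 0.0889 CPM in frogs B, C, F and G and at 0.118, 0, 0 and 41.4 CPM in A, D, E and H. The highest level was thus in the slow frog H and the fast frog G was near 0 (exact permutation test, p = 0.429). The total of its Trinity gene lay the other way, at 120, 109, 128 and 184 CPM in frogs B, C, F and G and at 198, 154, 165 and 366 CPM in A, D, E and H. Only frog G reached into the range of the low class. The log2 fold change of the total was -0.71 (standard error 0.33), with a Benjamini-Hochberg FDR of 0.884 (edgeR quasi-likelihood) and p = 0.0857 in the exact permutation test. The study reports dissimilar *mybpc2* transcripts higher in burst-performant frogs and proposes that they are copies from both subgenomes. Here a single transcript carries the symbol, so that the total may be only part of *mybpc2*. Whether other Trinity genes hold more of it was not tested.

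*tmod4*, the tropomodulin that caps the slow-growing end of thin filaments in skeletal muscle, had its listed transcript at 82.3, 42.6, 17.3 and 0 CPM in frogs B, C, F and G and at 0, 0, 0 and 23.7 CPM in A, D, E and H. The gene total was at 123, 294, 122 and 108 CPM in the high and 155, 166, 141 and 227 CPM in the low class. High and low frogs were mixed in both, and the exact permutation test gave p = 0.257 for the transcript and p = 0.60 for the total. *ocm4.1*, a calcium buffer of the parvalbumin family, was at 180, 117, 11.0 and 4.53 CPM in frogs B, C, F and G and at 5.31, 2.36, 6.0 and 32.1 CPM in A, D, E and H in its listed transcript. Its gene total was far larger, at 9000, 15688, 5181 and 4531 CPM in frogs B, C, F and G and 5057, 6097, 5474 and 14354 CPM in A, D, E and H. Frogs B, C and H were the highest in both, with log2 fold changes of 2.78 (standard error 1.25) and 0.15 (standard error 0.50).

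**Figure D4:**
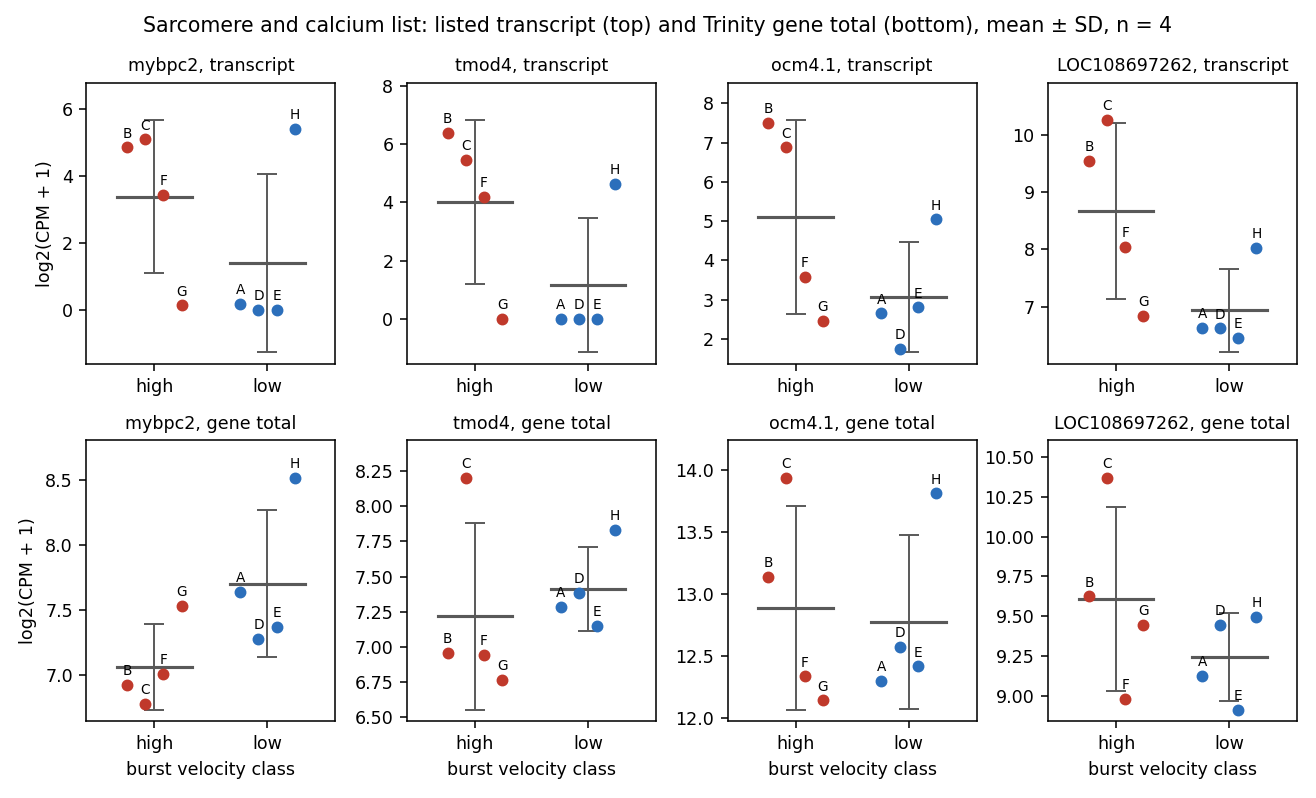
Listed transcript (upper row) and Trinity gene total (lower row) of *mybpc2*, *tmod4*, *ocm4.1* and *LOC108697262* in every frog, as log2(CPM + 1) by burst velocity class, with letters for frogs and bars for mean ± SD (n = 4 each). In the upper row frog H stood above the other low-velocity frogs and frog G below the other high-velocity frogs, and the classes overlapped in all 8 panels.

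For the other genes of this list and for *mef2a*, the totals of both classes overlapped. *lmo7*, a LIM domain protein of cell junctions, had a total of 99.5 ± 2.63 CPM in the high and 103 ± 25.7 CPM in the low class (SD, n = 4; exact permutation test, p = 0.971), with a narrower spread among fast frogs. *rcsd1*, a protein that binds the actin-capping protein CapZ, was at 13.4 ± 5.49 and 10.7 ± 2.97 CPM (SD, n = 4; exact permutation test, p = 0.457). *mef2a*, a transcription factor of muscle genes, was at 23.1 ± 6.62 and 20.1 ± 5.57 CPM (SD, n = 4; exact permutation test, p = 0.571). Their listed transcripts overlapped as well. That of *lmo7* was at 35.3, 69.2, 45.5 and 8.09 CPM in frogs B, C, F and G and 15.8, 7.93, 4.12 and 37.6 CPM in A, D, E and H. The *rcsd1* transcript was at 4.44 CPM in frog G and 0 in B, C and F, and at 0.590, 7.93, 3.59 and 0 CPM in A, D, E and H. The *mef2a* transcript was at 0.90, 2.49, 1.55 and 0 CPM in frogs B, C, F and G and at 3.54 CPM in frog H alone of the low class. In all 3, frogs G and H had changed places against the rest of their class.

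All 8 listed transcripts of mitochondrial and metabolic genes were fitted lower in the high class, with a median log2 fold change of -1.25. The category test had put them higher in endurant frogs, which favours that direction. Of all 59 transcripts put higher there, 57 were fitted lower in the high class. Of the 8, 0 had an unadjusted p under 0.05 in edgeR's quasi-likelihood test, beside 3.9% of all transcripts. Of the 8 gene totals, 2 were fitted higher and 6 lower in the high class. Their median was -0.67, beside -0.00318 for all gene totals. These totals include the chosen transcripts, and the *gls2* and *nfs1* totals hold no others, so that their direction is not independent evidence. Again 0 of the 8 had an unadjusted p under 0.05, beside 5.52% of all totals. The smallest Benjamini-Hochberg FDR in the list was 0.884 by the same test.

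*atp5f1b*, the beta subunit of the mitochondrial ATP synthase, had a gene total of 1461, 1934, 1505 and 1744 CPM in frogs B, C, F and G and of 2018, 2890, 2758 and 1666 CPM in A, D, E and H. Frogs A, D and E were above every fast frog and frog H was among them (exact permutation test, p = 0.114), with a log2 fold change of -0.49 (standard error 0.28). Its listed transcript was scarce, at 0, 0, 0.124 and 2.58 CPM in the high and 2.24, 0.214, 4.29 and 0 CPM in the low class. *gls2*, a mitochondrial glutaminase with 1 transcript, was at 0.225, 0.138, 0.124 and 1.07 CPM in frogs B, C, F and G and at 1.42, 1.93, 1.47 and 0 CPM in A, D, E and H. Only frog H, at 0, broke the separation (exact permutation test, p = 0.20). These levels are near the limit of the libraries, since 3 counts correspond to 0.173 to 0.674 CPM before TMM scaling, depending on the frog.

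*mfn1*, which fuses outer membranes of mitochondria, and *esrra*, a nuclear receptor that controls mitochondrial genes, had nearly the same totals in both classes. *mfn1* was at 39.4 ± 8.93 CPM in the high and 38.2 ± 9.58 CPM in the low class, and *esrra* at 26.1 ± 18.6 and 25.3 ± 10.8 CPM (SD, n = 4; exact permutation tests, p = 0.857 and p = 0.80). The listed *mfn1* transcript was at 23.8 CPM in frog G, 27.0 in D and 17.7 in E, and at 0 in the other 5 frogs. That of *esrra* was at 10.4 CPM in frog G, 7.43 in A and 2.88 in E, and at 0 in the other 5. Both transcripts were thus found in frogs of both velocity classes. They were found only in endurant frogs, which their choice by category favours.

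**Figure D5:**
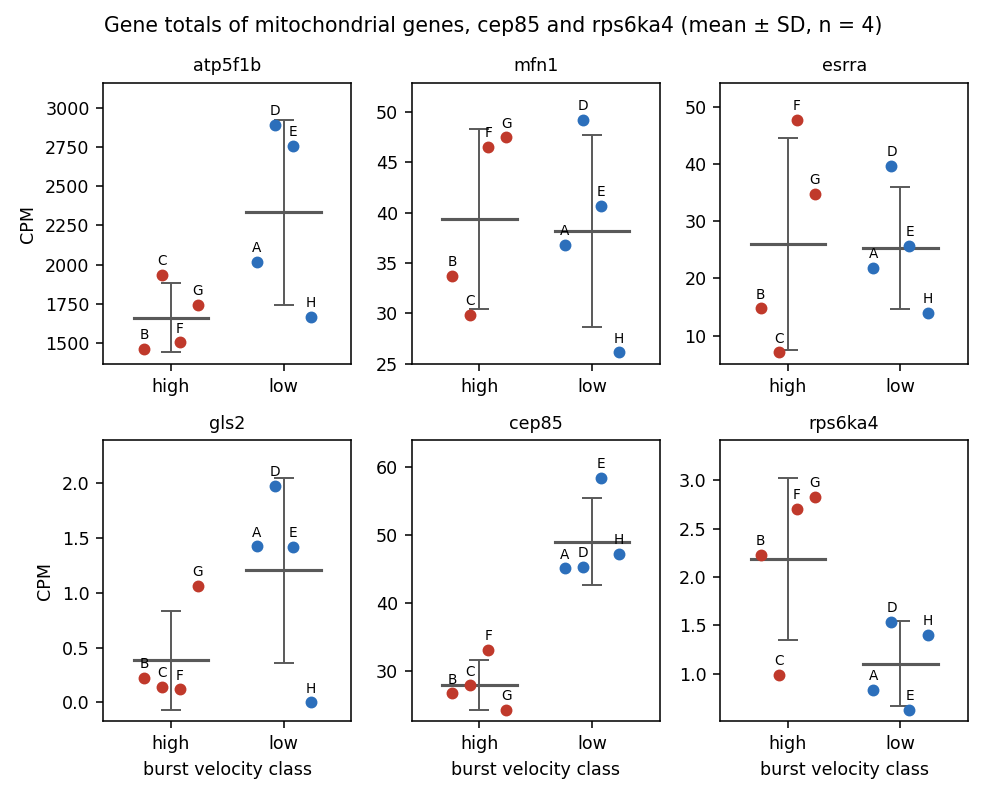
Trinity gene totals of *atp5f1b*, *mfn1*, *esrra*, *gls2*, *cep85* and *rps6ka4* in every frog, in CPM (vertical axes that do not start at 0) by burst velocity class, with letters for frogs and bars for mean ± SD (n = 4 each). Among these 6 genes the classes were apart only for *cep85*, between 24.3 and 33.1 CPM in the high and between 45.1 and 58.4 CPM in the low class.

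Of all 96 gene totals with a symbol, only that of *cep85*, a protein of the centrosome, had classes that did not overlap. It was at 26.7, 27.9, 33.1 and 24.3 CPM in frogs B, C, F and G and at 45.1, 45.2, 58.4 and 47.2 CPM in A, D, E and H. Every slow frog was thus well above every fast one, frogs G and H included, and the gene has 12 transcripts. The log2 fold change was -0.81 (standard error 0.22), short of the threshold of 2. The Benjamini-Hochberg FDR was 0.884 (edgeR quasi-likelihood), 0.514 (edgeR exact test) and 0.0239 (DESeq2 Wald test). Among all gene totals, 3.55% did not overlap between the classes. *rps6ka4*, a kinase downstream of MAP kinases, was at 2.23, 0.986, 2.71 and 2.83 CPM in the high and 0.831, 1.54, 0.626 and 1.40 CPM in the low class. Only frog C fell into the range of the slow frogs, and the log2 fold change of 1.08 (standard error 0.48) had a Benjamini-Hochberg FDR of 0.884 (edgeR quasi-likelihood). The *rps6ka4* levels rest on few counts, 30, 7, 45 and 32 in frogs B, C, F and G and 7, 7, 11 and 5 in A, D, E and H.

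Of the other transcripts with a symbol, 9 had an unadjusted p under 0.05, among them that of *ascc2*, and the classes overlapped in the other 8. The most extreme, *XELAEV_18028904mg*, was at 15.2, 18.4 and 21.5 CPM in frogs A, D and E and at 0 in frog H and in every fast frog, at least 259-fold higher in the low class by pooled counts. Its Benjamini-Hochberg FDR was 1.0 (edgeR quasi-likelihood) and 0.00381 (edgeR exact test). The transcript of *scoc*, a Golgi protein, was at 2.36, 7.50 and 2.24 CPM in the same slow frogs, at 0.444 CPM in frog G and at 0 in the rest. *XELAEV_18013100mg* was at 2.12, 1.71 and 0.824 CPM in A, D and E and at 0.267 CPM in frog G, with a ratio of pooled counts of 17.8 (exact 95% counting interval 5.68 to 90.1). All 3 were found in the slow frogs other than H (exact permutation test for each, p = 0.143).

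In the opposite direction, *rbpms2*, an RNA-binding protein, was at 19.7, 10.8 and 18.8 CPM in frogs B, C and F, at 0 in frog G and at 0.236 CPM in frog A alone of the low class, a ratio of 241 (exact 95% counting interval 66.3 to 1990). *baz2a*, a chromatin remodelling protein, was at 3.08, 0.830 and 3.04 CPM in B, C and F, with a ratio of 71.8 (12.6 to 2866), and *fbxo3*, a subunit of a ubiquitin ligase, at 1.80, 1.52 and 2.05 CPM, with a ratio of 50.9 (8.83 to 2039). The zinc finger gene *znf577* was at 2.93, 3.46 and 1.55 CPM in the same frogs, with a ratio of 33.3 (8.95 to 279). *LOC108713478* was at 1.88, 0.969 and 1.99 CPM there and at 0.178 CPM in frog G, with a ratio of 24.7 (6.57 to 208). In the last 4, frog H had the only counts of the low class, at 0.272 CPM for *baz2a* and *fbxo3* and 0.544 CPM for *znf577* and *LOC108713478*. The fast frog G was at or near 0 in all 5 of these transcripts. Their intervals rest on pooled counts and leave out the spread between frogs. Over the frogs, the exact permutation test gave p = 0.0571 for *LOC108713478* and p = 0.143 for each of the other 4. edgeR's exact test called none of the 5, with the lowest Benjamini-Hochberg FDR, 0.0979, for *rbpms2*.

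In the remaining lists, the gene totals with an unadjusted p under 0.05 were those of *rps6ka4* and *cep85*, beside 5.52% of all totals. Among 12 transcripts of transcription, stress and signalling genes, 1 had an unadjusted p under 0.05, beside 3.9% of all transcripts, and the median log2 fold change was -0.37. The 9 transcripts of adhesion and actin signalling genes had a median of 0.76 and 0 with an unadjusted p under 0.05. Those of vesicle traffic and microtubules, 7 in all, had a median of 1.38 and 1 with an unadjusted p under 0.05, that of *scoc*. For 10 transcripts of translation and RNA genes the median was -0.18 and 1 had an unadjusted p under 0.05, that of *rbpms2*. The gene totals of these 4 lists had medians from -0.03 to 0.13, close to -0.00318 for all gene totals, while their transcripts ran from -4.63 to 7.34.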

How the data were processed

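PolyA RNA from knee extensors of 8 frogs was sequenced in paired ends. Per the labels and the methods of the study, the authors trimmed the reads with Trimmomatic, assembled those of all frogs with Trinity and quantified each frog with Kallisto. Their versions were not given in the sources used here. Estimated counts, as deposited, are read pairs per transcript, not corrected for depth or length, and need not be whole. The TPM values deposited by the authors sum to 1000000 per frog and keep no depth. Lengths were also deposited. No sequences or coordinates were used here.

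Estimated counts were rounded and compared, 4 high- against 4 low-velocity frogs, with edgeR 4.0.16 in R 4.3.3 (TMM, estimateDisp, glmQLFit, glmQLFTest) on features above 1 CPM in 2 or more frogs, as transcripts and as sums over Trinity genes. A feature was called at a Benjamini-Hochberg FDR of 0.05 and an absolute log2 fold change of 2. Single values were tested on mean log2(CPM + 1) over all 70 assignments of the frogs (2-sided exact permutation test, smallest p 0.0286). Alternatives were edgeR's exact test, DESeq2 1.42.0, limma-trend (limma 3.58.1) with a pseudocount of 1 or 0.1 on log2 TPM, other scalings and filters, category as a term, and frogs left out. Python 3.11.15, numpy 2.4.6, scipy 1.17.1, pandas 2.3.3 and matplotlib 3.10.9 were used. On simulated data, calls of changed features had to have the right sign, and each test except limma had to find some changes. No limit was set there on false calls, so that this check does not rank the tests.

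Symbols come from the study's table of transcripts that differed between categories, whose 103 entries were each joined to 1 transcript through edgeR's exact test of the categories. The names, lists and comparison were chosen with earlier results of these data known. Named were 13 genes, mostly of muscle and energy supply, other transcripts or totals with a symbol and an unadjusted p under 0.05 or classes that did not overlap, and the 2 transcripts of lowest p in each direction without a symbol. Nothing says how many muscles or extractions stand behind a library, and p-values measure the spread between these frogs.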

Additional observations from a re-analysis of the deposited data

Results flagged for a closer look

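In 85 classes of 4 frogs with values that differed, a frog stood far from the other 3 of its class for 22 values (25.9%), by the gap to its nearest neighbour over the range of the class. Chance flags about 1 class in 20 where values vary freely, which does not hold here. In 12 of the 22 the other 3 frogs were at 0, so that any count in the remaining frog fixes the flag. Most of these features were also chosen for a difference between categories in which frogs G and H change places. No explanation was tested.

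Frog G stood above the rest of the high class for the transcripts of *mfn1* (23.8 CPM), *esrra* (10.4 CPM), *rcsd1* (4.44 CPM), *atp5f1b* (2.58 CPM) and *gls2* (1.07 CPM, gene total 1.06 CPM). It also did for *scoc* (0.444 CPM) and *XELAEV_18013100mg* (0.267 CPM), which rest on 5 and 3 counts.

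Frog H stood above the rest of the low class for the transcripts of *mybpc2* (41.4 CPM), *tmod4* (23.7 CPM), *mef2a* (3.54 CPM), *ocm4.1* (32.1 CPM, gene total 14354 CPM) and *LOC108697262* (259 CPM). On 1 or 2 counts it did so for *baz2a* and *fbxo3* (0.272 CPM each) and for *znf577* and *LOC108713478* (0.544 CPM each).

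Frog A had the only counts of the low class for *rbpms2* (0.236 CPM). Gene totals were farthest from their class for *mef2a* in frog B (13.3 CPM, below), *tmod4* in frog C (294 CPM, above) and *cep85* in frog E (58.4 CPM, above).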

How the results depend on the processing

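The main counts of 0 calls depended on the test and, within the main test, on the filter. Transcripts numbered 144 with edgeR's exact test, 151 with DESeq2, 4 and 8 with limma on log2(TPM + 1) and log2(TPM + 0.1), and 12 without a filter, and gene totals 36, 22, 1, 3 and 768. They stayed at 0 under the other scalings, filters and frog sets run, except that leave-one-out gave 0 to 2 gene totals (2 without frog C). Of the transcripts with a symbol, 12 had an unadjusted p under 0.05 in the main test, 2 with filterByExpr or a CPM above 1 in 4 frogs, which test fewer of them, 4 with category as a term, 22 without a filter, 5 without frogs C and D, 96 without G and H, and 7 to 66 with 1 frog left out. Without G and H, the classes are 6 frogs of the categories on which these transcripts were chosen. Without G or H alone, the classes also come closer to those categories. For their gene totals, 4 became 2 with either stricter filter, 10 without a filter, 15 without G and H, and 3 to 15 with 1 frog left out. Presence in 1 class, 58 transcripts at 5 counts, became 220.0 at 2 counts, 26 at 10 counts, 4 for gene totals and 114 to 194 with 1 frog left out. The distance difference of 2.10 ran from -2.95 to 8.35 with 1 frog left out.

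Of 946 fits of 47 single features, 865 kept direction and side of the threshold, 29 newly passed it and 52 changed sign. The main test called no feature, so that no called value could change sign. With category as a term, log2 fold changes turned to 0.67 (*mfn1* transcript), -0.38 (*mybpc2* transcript), 1.54 (*esrra* transcript), 0.15 (*rcsd1* transcript), -1.01 (*mef2a* transcript), 0.36 (*atp5f1b* transcript), 0.16 (*gls2* transcript) and -0.41 (*ocm4.1* total). Without C and D they turned to 0.40 (*mfn1*), -0.11 (*mybpc2*) and -0.35 (*mef2a*) for transcripts and to -0.42 (*ocm4.1*) and -0.074 (gene of TR57261|c0_g1_i2) for totals. Without G and H, totals turned to -0.20 (*mfn1*), -0.32 (*esrra*), 0.22 (*tmod4*) and 0.10 (gene of TR44314|c3_g1_i1). The *esrra* transcript was at 0.0023 with DESeq2, 0.0079 with the exact test, 0.064 with library size only and 0.029 without a filter. Totals turned with library size only to 0.071 (*lmo7*) and 0.047 (TR44314|c3_g1_i1), and without a filter to 0.093 (*lmo7*), 0.078 (*tmod4*) and 0.10 (TR44314|c3_g1_i1). With limma at pseudocounts 0.1 and 1 they turned to -0.095 and -0.041 (*esrra*), 0.015 and 0.012 (TR47494|c2_g1_i4), and 0.082 and 0.079 (TR44314|c3_g1_i1). With 1 frog left out, ranges crossed 0 for the *esrra* transcript (-7.75 to 1.28) and the totals of *ocm4.1* (-0.32 to 0.63), *mfn1* (-0.10 to 0.19), *lmo7* (-0.20 to 0.089), *esrra* (-0.42 to 0.35), *tmod4* (-0.56 to 0.064) and TR44314|c3_g1_i1 (-0.14 to 0.037). The cause was not tested.

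No paired analysis was possible because the labels give each frog a letter of its own and no number that both classes share. Frogs D and H, with the fewest counts, limit what a 0 in the low class can show.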
